A study of Homo sapiens with 12 samples.

Results

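The genes described here carry out glycolysis or respond to hypoxia. They were chosen by name: 37 gene symbols for glucose transporters, lactate transporters, glycolytic enzymes, enzymes that regulate glycolysis, the hypoxia-inducible factor HIF-1α with its oxygen sensors, and other HIF target genes. A member was measured where a probe set of the array, a set of probes read as 1 value, was annotated with exactly that symbol, and the probe set with the highest mean over the 12 arrays was taken. This gave 34 measured members among 18417 genes with such a probe set. The members were chosen with earlier results of these data known, so counts of them describe this list. The lactate transporters SLC16A1 and SLC16A3 had no probe set of their own symbol alone, and PGAM1, the glycolytic phosphoglycerate mutase, shared 5 probe sets with PGAM4, so these members have no value here.

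The cells were U2OS-ERα, a human osteosarcoma line that carries estrogen receptor α, grown in phenol red free IMEM with charcoal-stripped serum. The first group received 50 nM of an siRNA pool that targets SRC-1 (gene NCOA1, a coactivator of nuclear receptors) and then 17β-estradiol for 3 h. The second received the SRC-1 siRNA and ethanol vehicle, the third a non-targeting siRNA pool and estradiol, and the fourth the non-targeting siRNA and vehicle. Each group held 3 arrays, labelled as biological replicates, and nothing in the labels says how the cultures were separated, so p-values measure the spread among these arrays. The estradiol dose, the oxygen level of the cultures and whether the line is a single clone are not given in the sources used here, and no group was labelled as hypoxic.

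Glycolysis takes up glucose through membrane transporters, phosphorylates it with hexokinase and breaks it down to pyruvate, which lactate dehydrogenase can turn into lactate. Its flux is set in part by fructose 2,6-bisphosphate, the activator of phosphofructokinase that the PFKFB enzymes make and degrade. HIF-1α is hydroxylated by the prolyl hydroxylases EGLN1 and EGLN3 and degraded when oxygen is present; at low oxygen it accumulates and switches on transporters, glycolytic enzymes, VEGFA and its own hydroxylases. Estradiol binds estrogen receptor α, which recruits coactivators of the SRC family to regulated genes.

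The median log2 value per array was 6.855 to 6.921, arrays of a group correlated at 0.9967 to 0.9979 across probe sets, and the lowest group mean of any member was 7.23, above the arrays' lower quartiles of 5.169 to 5.244. NCOA1 averaged 6.86 log2 under estradiol and 5.86 under vehicle with SRC-1 siRNA, and 9.08 under estradiol and 8.79 under vehicle with non-targeting siRNA. It was thus 4.64-fold lower with SRC-1 siRNA under estradiol and 7.60-fold lower under vehicle (limma adjusted p = 7.92e-06 and 7.3e-07). NCOA1 itself was 2.00-fold higher under estradiol than under vehicle in the SRC-1 siRNA cells (limma adjusted p = 0.00029), so the remaining SRC-1 transcript differed between the treatments. ESR1, the receptor gene, was not called in any comparison. Of the markers of bone and mesenchymal cells, VIM lay between 12.39 and 12.52, SPARC between 12.49 and 12.60 and COL1A1 between 9.02 and 9.31 on the arrays. The others were lower: ALPL reached 7.81, RUNX2 7.66, SP7 7.36, TWIST1 7.35 and COL1A2 6.81. IBSP, a bone matrix gene, lay below every lower quartile at 4.82 to 5.10, and BGLAP had no value. The 4 measured blood cell markers reached at most 6.03 and the 4 endothelial markers at most 6.23. Of the 5 epithelial markers, the keratins KRT8 and KRT18 reached 11.24 and 11.97, whereas EPCAM reached 7.57, CLDN4 6.93 and CDH1 6.04. The probe sets taken as the array's controls moved with the treatment: their mean deviation per array was 0.0941 to 0.178 log2 under estradiol and -0.159 to -0.0242 under vehicle with SRC-1 siRNA, and -0.00322 to 0.0679 under estradiol and -0.123 to -0.0391 under vehicle with non-targeting siRNA.

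Promoter sequences show which members carry the core of the element that HIF binds, written ACGTG or GCGTG and searched on both strands. Of the 34 measured members 30 had a window in the RefSeq table of GRCh38.p14, 54 windows of 300 bases in all; SLC2A3, NDRG1, VEGFA and BNIP3L were not matched. ACGTG stood in 40.7% of the members' windows and in 21.4% of the 35116 windows of all genes, and GCGTG in 42.6% and 36.5%. GGTCA, an arm of the palindrome that estrogen receptors bind, stood in 33.3% of the members' windows and 37.4% of all windows. In all, 4 windows are shown from 250 bases before to 30 after the start site, with ACGTG or GCGTG on either strand in capitals; they were chosen after the values were seen, SLC2A1, PFKFB3 and PFKFB4 because they rose with estradiol and LDHA because it was not called while its promoter held the most ACGTG matches of any member. Where a gene had several windows, the one with the most matches of either HIF core was shown. PFKFB3 and LDHA had 2 windows each, of which 1 held ACGTG. The palindrome CACGTG counts once on each strand. The windows lie at chr1:42958839-42959118 (minus strand) for SLC2A1, chr10:6202682-6202961 (plus) for PFKFB3, chr3:48556774-48557053 (minus) for PFKFB4 and chr11:18394313-18394592 (plus) for LDHA.
SLC2A1: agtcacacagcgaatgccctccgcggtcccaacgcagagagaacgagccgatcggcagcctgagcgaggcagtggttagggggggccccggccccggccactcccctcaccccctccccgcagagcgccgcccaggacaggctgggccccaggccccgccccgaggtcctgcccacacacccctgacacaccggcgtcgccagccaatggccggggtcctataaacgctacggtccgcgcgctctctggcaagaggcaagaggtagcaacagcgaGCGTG
PFKFB3: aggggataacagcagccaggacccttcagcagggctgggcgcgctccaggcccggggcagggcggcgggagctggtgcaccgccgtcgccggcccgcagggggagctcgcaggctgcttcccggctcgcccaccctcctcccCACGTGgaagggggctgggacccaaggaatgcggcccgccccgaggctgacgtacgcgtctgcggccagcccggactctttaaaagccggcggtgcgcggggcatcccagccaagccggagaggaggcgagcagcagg
PFKFB4: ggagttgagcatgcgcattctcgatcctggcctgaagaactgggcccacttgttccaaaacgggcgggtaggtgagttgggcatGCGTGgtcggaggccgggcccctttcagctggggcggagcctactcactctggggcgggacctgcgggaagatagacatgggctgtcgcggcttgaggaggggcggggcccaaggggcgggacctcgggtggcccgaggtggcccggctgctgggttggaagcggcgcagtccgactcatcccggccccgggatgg
LDHA: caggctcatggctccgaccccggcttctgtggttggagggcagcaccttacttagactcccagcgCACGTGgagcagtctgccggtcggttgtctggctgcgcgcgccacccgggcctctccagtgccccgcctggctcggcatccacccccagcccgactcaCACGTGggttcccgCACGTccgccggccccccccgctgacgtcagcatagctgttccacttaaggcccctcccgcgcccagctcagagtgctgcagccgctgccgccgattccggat

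SLC2A1 held 1 GCGTG, which begins at base 26 after the start site, and PFKFB4 held 1, which begins 166 bases before it. PFKFB3 held 1 CACGTG palindrome. LDHA held 5 ACGTG matches, with a CACGTG at 185 and at 87 bases before the start site and a single match on the minus strand at 73. Of the members called higher in the averaged estradiol effect, 5 genes were matched with 13 windows, 7 of them of HK1, and ACGTG stood in 7.69% of them against 51.2% of the 41 windows of the other members, GCGTG in 46.2% against 41.5%, and either of these HIF cores in 53.8% against 73.2%. Counted by gene, each of the 5 had a window with GCGTG, against 14 of the 25 other genes and 40.6% of all 27305 genes with a window. ACGTG was found for 1 of the 5, 17 of the 25 and 24.9% of all. Either core was found for 5 of the 5, 23 of the 25 and 52.4% of all. A gene counts here if any window matched. For GCGTG, HK1 counts through 2 of its 7 windows and PFKFB3 through 1 of its 2. GGTCA stood in 46.2% and 29.3% of the windows, and in 3 of the 5 and 8 of the 25 genes. These shares describe the windows, several of which belong to alternative starts of 1 gene, and a match is not a binding site.

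The first comparison asked how 3 h of estradiol changed these genes in cells with either siRNA. Estradiol raised glucose transporter 1, hexokinase 1, PFKFB3 and VEGFA, and lowered glucose transporter 3, with SRC-1 siRNA and with non-targeting siRNA, by 1.22-fold to 1.51-fold. Called means that the limma p was under 0.01 before and under 0.05 after Benjamini-Hochberg adjustment. With SRC-1 siRNA 5 of the 34 members were called higher and 1 lower, against 4.49% and 2.39% of all probe sets tested. With non-targeting siRNA 5 were called higher and 1 lower, against 1.85% and 0.873% of all. With each siRNA the other 28 members were not called, PFKFB4 among them with SRC-1 siRNA and HIF1A with non-targeting siRNA. The median difference of the members was -0.02 log2 with SRC-1 siRNA and -0.04 with non-targeting siRNA, beside -0.02 and -0.01 over all probe sets. Fewer cells with a transcript and less transcript per cell cannot be told apart in such bulk RNA.

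Of the glucose transporters, SLC2A1 encodes GLUT1, the widespread basal transporter. Its log2 values were 11.84, 11.81 and 11.77 under estradiol and 11.20, 11.29 and 11.33 under vehicle with SRC-1 siRNA, and 11.89, 11.89 and 11.79 under estradiol and 11.37, 11.41 and 11.32 under vehicle with non-targeting siRNA. All 6 estradiol arrays lay above all 6 vehicle arrays. The difference was 0.54 ± 0.05 log2 with SRC-1 siRNA (SE, n = 3 per group; 1.45-fold, limma adjusted p = 7.74e-05) and 0.49 ± 0.05 with non-targeting siRNA (1.41-fold, limma adjusted p = 0.000164).

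SLC2A3 encodes GLUT3, a high-affinity transporter best known from neurons, and it went the other way. Its log2 values were 10.78, 10.72 and 10.61 under estradiol and 11.22, 11.24 and 11.31 under vehicle with SRC-1 siRNA, and 11.26, 11.39 and 11.21 under estradiol and 11.72, 11.66 and 11.69 under vehicle with non-targeting siRNA. Within each siRNA the estradiol arrays lay below the vehicle arrays without overlap, and the lowest values of the 12 were those of the cells with both SRC-1 siRNA and estradiol. The difference was -0.55 ± 0.06 log2 with SRC-1 siRNA (SE, n = 3 per group; 1.46-fold lower, limma adjusted p = 0.000216) and -0.40 ± 0.06 with non-targeting siRNA (1.32-fold lower, limma adjusted p = 0.00256). With the mean of the array's control probe sets as a covariate it stood at -0.48 and -0.37 log2, and neither was called (limma adjusted p = 0.266 and 0.0751).

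**Figure D1:**
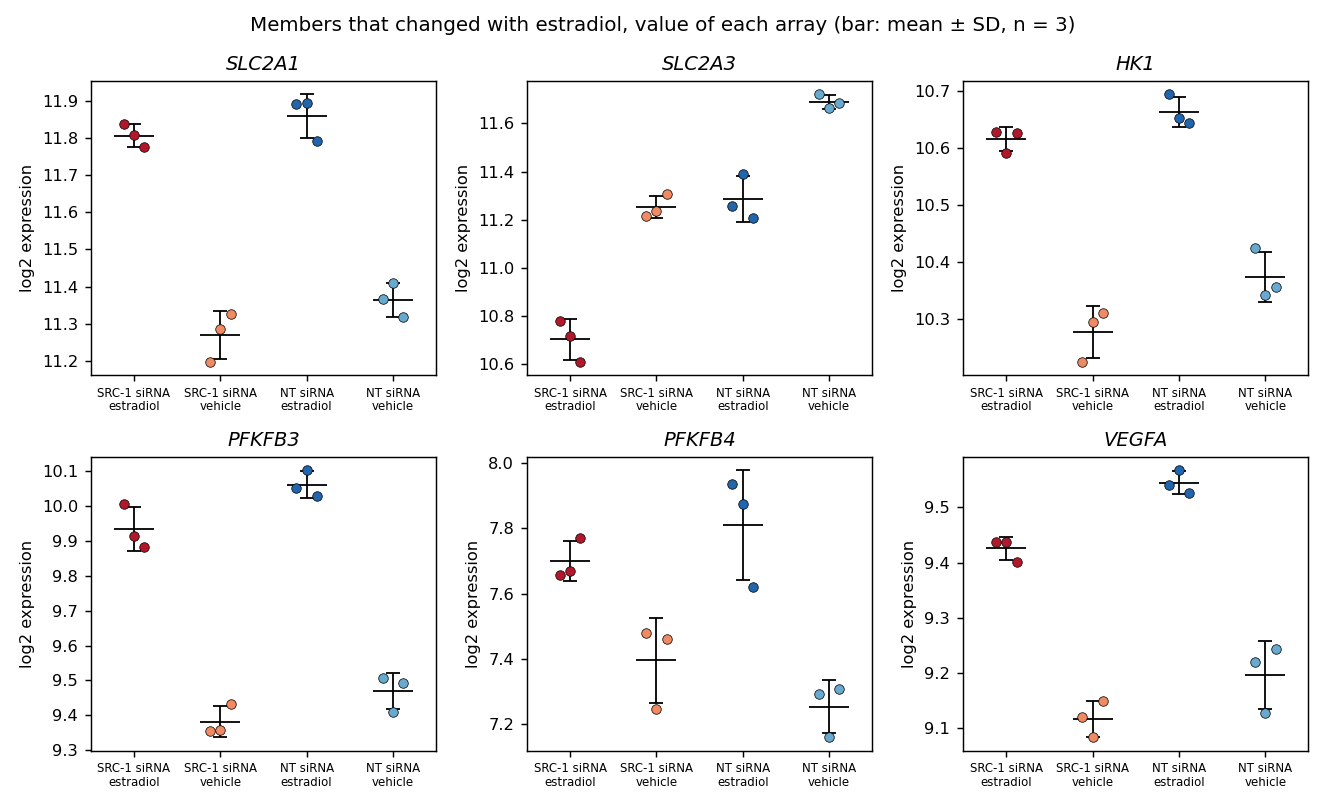
Log2 expression of 6 members on each of the 12 arrays. Columns are the 4 groups, points are arrays, horizontal marks are means and bars are SD (n = 3). The axes do not start at 0. SLC2A1, HK1, PFKFB3, PFKFB4 and VEGFA sit higher under estradiol than under vehicle with the same siRNA, and SLC2A3 sits lower, with its lowest mean of 10.70 in the cells with SRC-1 siRNA and estradiol.

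The enzymes that run glycolysis itself were mostly flat. Of the 16 measured, HK1 was called higher with either siRNA and the other 15 were not called; their differences ran over -0.15 to 0.10 log2 with SRC-1 siRNA and -0.19 to 0.11 with non-targeting siRNA. In both comparisons the 95% intervals of those 15 lay within 1.25-fold of no change. Over all members and all probe sets the share with so narrow an interval was 76.5% and 68% with SRC-1 siRNA, and 76.5% and 75.9% with non-targeting siRNA. In each comparison the median standard error was 0.048 log2 for the members and 0.0711 for all probe sets.

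HK1, the housekeeping hexokinase that traps glucose as glucose 6-phosphate, had log2 values of 10.63, 10.59 and 10.63 under estradiol and 10.23, 10.30 and 10.31 under vehicle with SRC-1 siRNA, and of 10.69, 10.65 and 10.64 under estradiol and 10.42, 10.34 and 10.36 under vehicle with non-targeting siRNA. Estradiol and vehicle arrays did not overlap. The difference was 0.34 ± 0.04 log2 with SRC-1 siRNA (SE, n = 3 per group; limma adjusted p = 0.000621) and 0.29 ± 0.04 with non-targeting siRNA (limma adjusted p = 0.00251).

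HK2, a hexokinase known as a HIF target, was not called. Its log2 values were 9.79, 9.88 and 9.80 under estradiol and 9.92, 9.98 and 10.03 under vehicle with SRC-1 siRNA, and 9.88, 10.04 and 10.00 under estradiol and 9.98, 9.95 and 10.10 under vehicle with non-targeting siRNA. The estradiol arrays lay below the vehicle arrays with SRC-1 siRNA and overlapped them with non-targeting siRNA, and the differences were small (-0.15, 95% interval -0.28 to -0.02, and -0.04, -0.16 to 0.09; limma adjusted p = 0.149 and 0.855).

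LDHA, the lactate dehydrogenase subunit that hypoxia induces, had log2 values of 13.11, 13.07 and 13.12 under estradiol and 13.14, 13.13 and 13.14 under vehicle with SRC-1 siRNA, and of 13.12, 13.12 and 13.10 under estradiol and 13.17, 13.12 and 13.19 under vehicle with non-targeting siRNA. Its difference was -0.04 (95% interval -0.12 to 0.05) with SRC-1 siRNA and -0.05 (-0.13 to 0.04) with non-targeting siRNA. Other steps were close to it: GAPDH, which oxidises glyceraldehyde phosphate, differed by -0.05 and -0.03 log2, PGK1, which makes the first ATP of the pathway, by -0.07 and -0.04, and PKM, the pyruvate kinase, by -0.03 and 0.00, with SRC-1 and non-targeting siRNA in that order. TPI1 had a second probe set, whose differences of 0.02 and 0.01 were likewise not called. GAPDH, PGK1, LDHA and other enzymes of this list have near-identical pseudogene copies, whose transcripts their probes may also read.

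The 3 phosphofructokinase subunits were not called. PFKL differed by -0.04 log2 with SRC-1 siRNA and -0.01 with non-targeting siRNA, PFKM by 0.07 and 0.11, and PFKP by 0.05 and -0.02. By contrast, the regulators of that step moved. PFKFB3, whose product favours making fructose 2,6-bisphosphate, had log2 values of 10.01, 9.91 and 9.88 under estradiol and 9.35, 9.36 and 9.43 under vehicle with SRC-1 siRNA, and of 10.05, 10.10 and 10.03 under estradiol and 9.51, 9.41 and 9.49 under vehicle with non-targeting siRNA. All 6 estradiol arrays lay above all 6 vehicle arrays. With SRC-1 siRNA the difference was 0.55 ± 0.05 log2 (SE, n = 3 per group; 1.47-fold, limma adjusted p = 5.49e-05), and with non-targeting siRNA 0.59 ± 0.05 (1.51-fold, limma adjusted p = 3.33e-05).

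PFKFB4, a second bifunctional enzyme of this family, spread more between replicates. Its log2 values were 7.66, 7.67 and 7.77 under estradiol and 7.48, 7.25 and 7.46 under vehicle with SRC-1 siRNA, and 7.94, 7.88 and 7.62 under estradiol and 7.29, 7.16 and 7.31 under vehicle with non-targeting siRNA. Within each siRNA the treatments did not overlap. The difference was called with non-targeting siRNA (0.56 ± 0.09 log2, SE, n = 3 per group, limma adjusted p = 0.00465) and not with SRC-1 siRNA (0.30 ± 0.09, limma adjusted p = 0.0652), and the difference between these effects was itself not called (-0.25, 95% interval -0.53 to 0.02, limma adjusted p = 0.714). With the control mean as a covariate the value with non-targeting siRNA was 0.47 log2 and no longer called (limma adjusted p = 0.139). PDK1, the HIF-induced kinase that shuts off pyruvate dehydrogenase, was not called, at -0.08 with SRC-1 siRNA and -0.13 with non-targeting siRNA (limma adjusted p = 0.378 and 0.278).

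**Figure D2:**
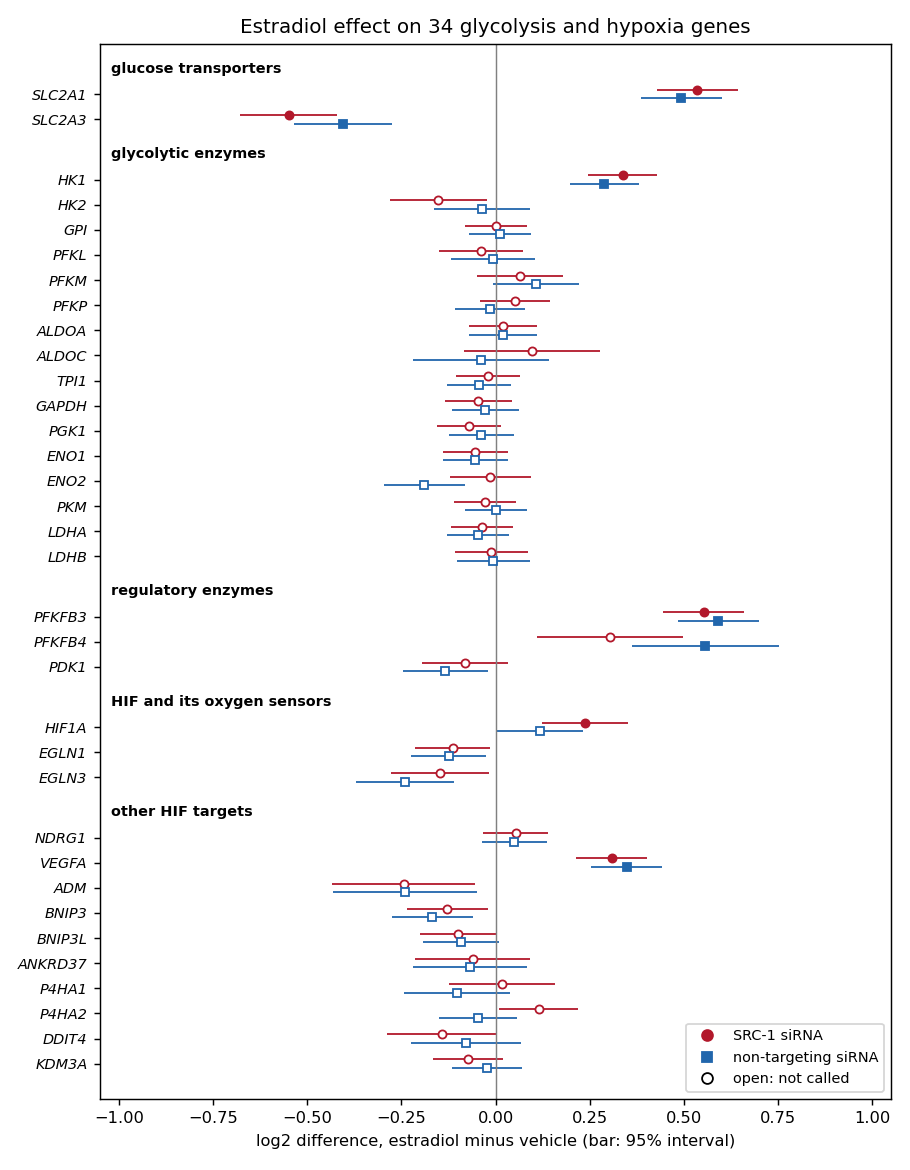
Estradiol minus vehicle (log2) for the 34 measured members, by role. Circles are cells with SRC-1 siRNA, squares cells with non-targeting siRNA, bars 95% intervals of the limma model, and filled symbols called differences. SLC2A1, HK1, PFKFB3 and VEGFA lie to the right and SLC2A3 to the left with both siRNAs, while the other 15 glycolytic enzymes lie between -0.19 and 0.11.

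Of HIF and its sensors, HIF1A, which encodes HIF-1α, had log2 values of 12.22, 12.16 and 12.31 under estradiol and 12.04, 11.94 and 11.999 under vehicle with SRC-1 siRNA, and of 12.21, 12.20 and 12.21 under estradiol and 12.12, 12.01 and 12.14 under vehicle with non-targeting siRNA. The estradiol arrays lay above the vehicle arrays with either siRNA. The difference of 0.24 ± 0.05 log2 was called with SRC-1 siRNA (SE, n = 3 per group; limma adjusted p = 0.0202), and 0.12 ± 0.05 was not with non-targeting siRNA (limma adjusted p = 0.363); the difference between them was 0.12 (95% interval -0.04 to 0.28, limma adjusted p = 0.777). The call with SRC-1 siRNA was lost without replicate 2 or 3 of those vehicle cells or replicate 1 or 3 of those estradiol cells. With the mean of the control probe sets as a covariate the value became 0.013 log2 (limma adjusted p = 0.983). These are transcript levels; HIF-1α protein was not measured.

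The hydroxylases lay slightly lower under estradiol. EGLN1, the main oxygen sensor, differed by -0.11 log2 with SRC-1 siRNA and -0.12 with non-targeting siRNA, and EGLN3, a hydroxylase that HIF itself induces, by -0.15 and -0.24. None of these 4 differences was called (limma adjusted p = 0.163, 0.241, 0.166 and 0.0622). EGLN3 had log2 values of 7.49, 7.49 and 7.50 under estradiol and 7.65, 7.60 and 7.67 under vehicle with SRC-1 siRNA, and of 7.48, 7.56 and 7.37 under estradiol and 7.67, 7.82 and 7.64 under vehicle with non-targeting siRNA. For both genes the treatments did not overlap within either siRNA. With 3 arrays per group this also held for ADM and BNIP3, which were not called with either siRNA. How often it held over all probe sets was not counted.

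Of the 10 other HIF targets, VEGFA, the growth factor for blood vessels, was called higher with either siRNA and the other 9 were not called. Over all probe sets 4.49% were called higher with SRC-1 siRNA and 1.85% with non-targeting siRNA. VEGFA had log2 values of 9.44, 9.44 and 9.40 under estradiol and 9.12, 9.08 and 9.15 under vehicle with SRC-1 siRNA, and of 9.54, 9.57 and 9.53 under estradiol and 9.22, 9.13 and 9.24 under vehicle with non-targeting siRNA. The estradiol arrays lay above all vehicle arrays. The difference was 0.31 ± 0.04 log2 with SRC-1 siRNA (SE, n = 3 per group; 1.24-fold, limma adjusted p = 0.00138) and 0.35 ± 0.04 with non-targeting siRNA (1.27-fold, limma adjusted p = 0.000778).

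The remaining targets did not move with VEGFA. ADM, the vasodilator peptide adrenomedullin, differed by -0.24 log2 with either siRNA, BNIP3, a mitophagy receptor, by -0.13 with SRC-1 siRNA and -0.17 with non-targeting siRNA, and its relative BNIP3L by -0.10 and -0.09. P4HA1 and P4HA2, subunits of collagen prolyl hydroxylase, differed by 0.02 and 0.11 with SRC-1 siRNA and by -0.10 and -0.05 with non-targeting siRNA. KDM3A, a histone demethylase, and DDIT4, an inhibitor of mTORC1, differed by -0.07 and -0.14 with SRC-1 siRNA and by -0.02 and -0.08 with non-targeting siRNA. NDRG1, a stress-response gene, stood at 0.05 with either siRNA, and ANKRD37 at -0.06 with SRC-1 siRNA and -0.07 with non-targeting siRNA.

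Averaged over the siRNAs, which uses the same 12 arrays again with a smaller error, 6 members were called higher under estradiol and 5 lower, against 6.11% and 3.85% of all probe sets. The 6 were SLC2A1, HK1, PFKFB3, PFKFB4, HIF1A and VEGFA. The 5 lower were SLC2A3 at -0.48 ± 0.04 log2, ADM at -0.24 ± 0.06, EGLN3 at -0.19 ± 0.04, BNIP3 at -0.15 ± 0.03 and EGLN1 at -0.12 ± 0.03 (SE). Their limma adjusted p were 2.25e-05, 0.0298, 0.0137, 0.0198 and 0.0396. Leaving out 1 array at a time, the call of EGLN1 held in 1 of 12 fits, the one without replicate 2 of the cells with SRC-1 siRNA and estradiol, and that of ADM in 4 of 12, those without replicate 3 of the non-targeting vehicle cells, replicate 1 of the non-targeting estradiol cells, replicate 1 of the SRC-1 siRNA vehicle cells or replicate 2 of the SRC-1 siRNA estradiol cells. With the control mean as a covariate SLC2A1 and PFKFB3 kept their calls, at 0.64 and 0.56 log2, and the other 9 lost theirs. Of those 9, SLC2A3 stood at -0.43 log2, HK1 at 0.33, PFKFB4 at 0.29, VEGFA at 0.28, EGLN3 at -0.13, BNIP3 at -0.12, EGLN1 at -0.10, ADM at 0.016 and HIF1A at 0.012. Over all probe sets that fit called 212, against 2898 without the covariate. In the effect with SRC-1 siRNA alone HK1, PFKFB3 and VEGFA also lost their calls in it, at 0.36, 0.53 and 0.25 log2 (limma adjusted p = 0.23, 0.124 and 0.453), and kept them with non-targeting siRNA. That covariate itself separates the treatments and raises the standard errors, so what it took out of an estradiol effect cannot be told apart from the treatment.

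The second comparison asked what SRC-1 siRNA did to these genes within each treatment. It lowered SLC2A3, NDRG1 and BNIP3L under estradiol and under vehicle, and ENO2 under vehicle, by 1.19-fold to 1.50-fold, and no member was called higher. Under estradiol 3 of the 34 members were called lower and 0 higher, against 1.07% and 0.732% of all probe sets. Under vehicle 4 were lower and 0 higher, against 0.945% and 0.265%. The members' median was -0.03 log2 under estradiol and -0.04 under vehicle, beside -0.01 and 0.00 over all probe sets. At an unadjusted limma p under 0.05, 7 members were lower under estradiol and 1 higher, EGLN1. Under vehicle 7 were lower and 2 higher, EGLN1 and KDM3A. Of all 29094 probe sets 4589 differed in either direction under estradiol and 3691 under vehicle.

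SLC2A3, whose values are given above, differed by -0.58 ± 0.06 log2 under estradiol (SE, n = 3 per group; 1.50-fold lower, limma adjusted p = 0.000701) and -0.44 ± 0.06 under vehicle (1.35-fold lower, limma adjusted p = 0.00426). It was the only one of the 34 members called both for estradiol and for SRC-1 siRNA in each of the 4 comparisons, and the 2 lay in the same direction: cells with SRC-1 siRNA and estradiol averaged 10.70 ± 0.09 log2 and cells with neither 11.69 ± 0.03 (SD, n = 3). SLC2A1 was not called, at -0.05 under estradiol and -0.09 under vehicle (95% intervals -0.16 to 0.06 and -0.20 to 0.01).

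NDRG1 had log2 values of 10.61, 10.70 and 10.66 with SRC-1 siRNA and 10.90, 10.91 and 10.91 with non-targeting siRNA under estradiol, and of 10.57, 10.62 and 10.61 with SRC-1 siRNA and 10.84, 10.87 and 10.85 with non-targeting siRNA under vehicle. The 6 SRC-1 siRNA arrays lay below the other 6. The difference was -0.25 ± 0.04 log2 under either treatment (SE, n = 3 per group; limma adjusted p = 0.00904 under estradiol and 0.009 under vehicle). Both calls were lost in a fit of the compared arrays alone, where the adjusted p under vehicle was 0.101, and the one under estradiol also with the control mean as a covariate (-0.22 log2, limma adjusted p = 0.142).

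BNIP3L, which marks mitochondria for removal, had log2 values of 11.70, 11.59 and 11.60 with SRC-1 siRNA and 11.89, 11.95 and 11.88 with non-targeting siRNA under estradiol, and of 11.76, 11.69 and 11.75 with SRC-1 siRNA and 11.95, 12.03 and 12.01 with non-targeting siRNA under vehicle. The siRNAs did not overlap. The difference was -0.28 ± 0.05 log2 under estradiol (SE, n = 3 per group; limma adjusted p = 0.0116) and -0.27 ± 0.05 under vehicle (limma adjusted p = 0.0157). The call under estradiol was lost without non-targeting replicate 2 or SRC-1 siRNA replicate 3, and that under vehicle without replicate 2 or 3 of either siRNA.

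**Figure D3:**
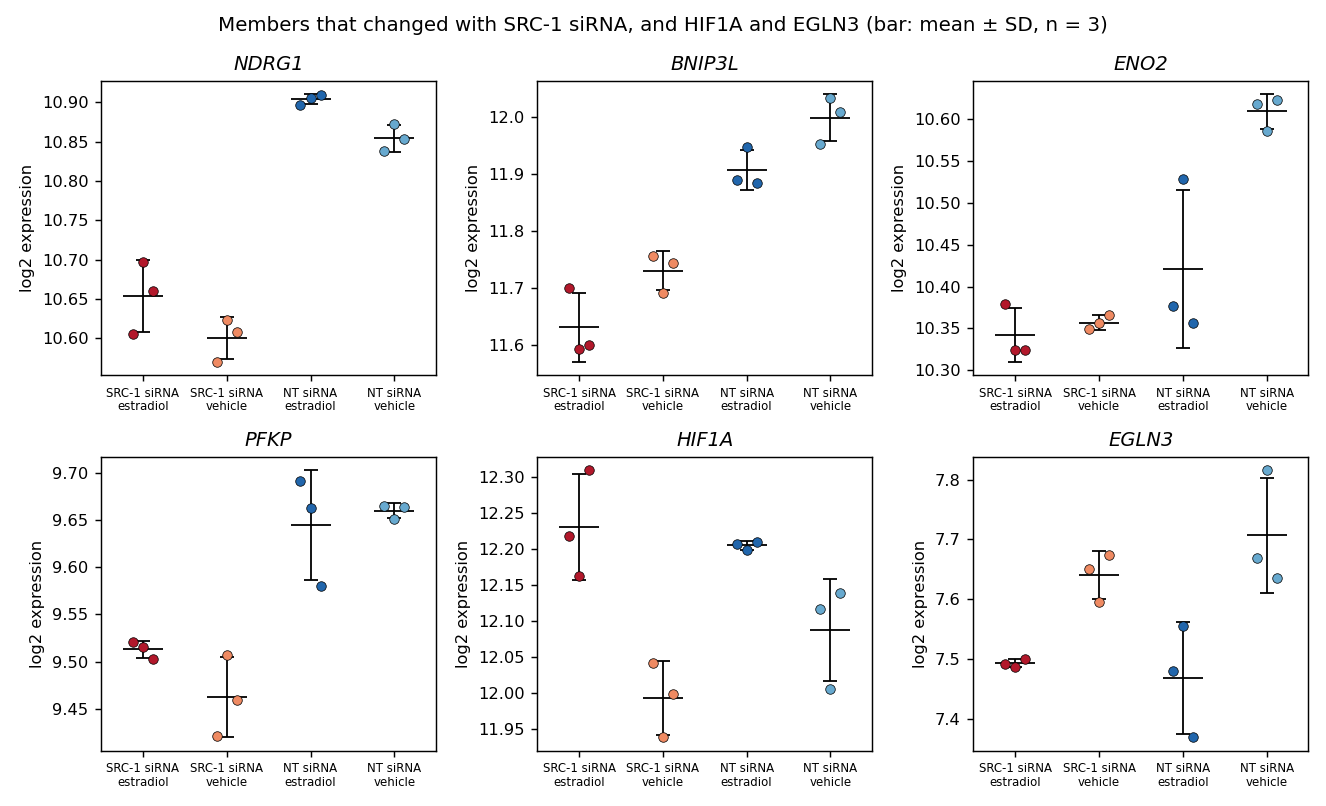
Log2 expression of NDRG1, BNIP3L, ENO2, PFKP, HIF1A and EGLN3 on each of the 12 arrays. Columns are the 4 groups, points are arrays, horizontal marks are means and bars are SD (n = 3). The axes do not start at 0. NDRG1 and BNIP3L sit lower on the 6 SRC-1 siRNA arrays than on the 6 non-targeting arrays, and ENO2 is highest in non-targeting cells under vehicle, at a mean of 10.61.

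Among the glycolytic enzymes ENO2, the neuronal-type enolase, had log2 values of 10.38, 10.32 and 10.32 with SRC-1 siRNA and 10.38, 10.53 and 10.36 with non-targeting siRNA under estradiol, and of 10.35, 10.36 and 10.37 with SRC-1 siRNA and 10.62, 10.59 and 10.62 with non-targeting siRNA under vehicle. The siRNAs overlapped under estradiol and not under vehicle. The difference was called under vehicle (-0.25 ± 0.05, SE, n = 3 per group, limma adjusted p = 0.031) and not under estradiol (-0.08 ± 0.05, limma adjusted p = 0.479). The call under vehicle was lost when any 1 of the 6 arrays compared was left out. The other 15 enzymes were not called, with differences of -0.15 to 0.09 log2 under estradiol and -0.20 to 0.08 under vehicle. Over all probe sets 1.07% were called lower under estradiol and 0.945% under vehicle.

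Averaged over the treatments, 5 members were called lower with SRC-1 siRNA and 0 higher, against 3.05% and 2.05% of all probe sets: SLC2A3 at -0.51 ± 0.04 log2, BNIP3L at -0.27 ± 0.03, NDRG1 at -0.25 ± 0.03, ENO2 at -0.17 ± 0.03 and PFKP at -0.16 ± 0.03 (SE; limma adjusted p = 5.55e-05, 0.000674, 0.000403, 0.0205 and 0.00968). PFKP, the platelet-type phosphofructokinase, had log2 values of 9.52, 9.52 and 9.50 with SRC-1 siRNA and 9.69, 9.66 and 9.58 with non-targeting siRNA under estradiol, and of 9.42, 9.51 and 9.46 with SRC-1 siRNA and 9.67, 9.65 and 9.66 with non-targeting siRNA under vehicle. The SRC-1 siRNA arrays lay below the non-targeting arrays under each treatment. The averaged call of ENO2 was lost without replicate 1 or 3 of the non-targeting vehicle cells or replicate 3 of the SRC-1 siRNA estradiol cells.

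**Figure D4:**
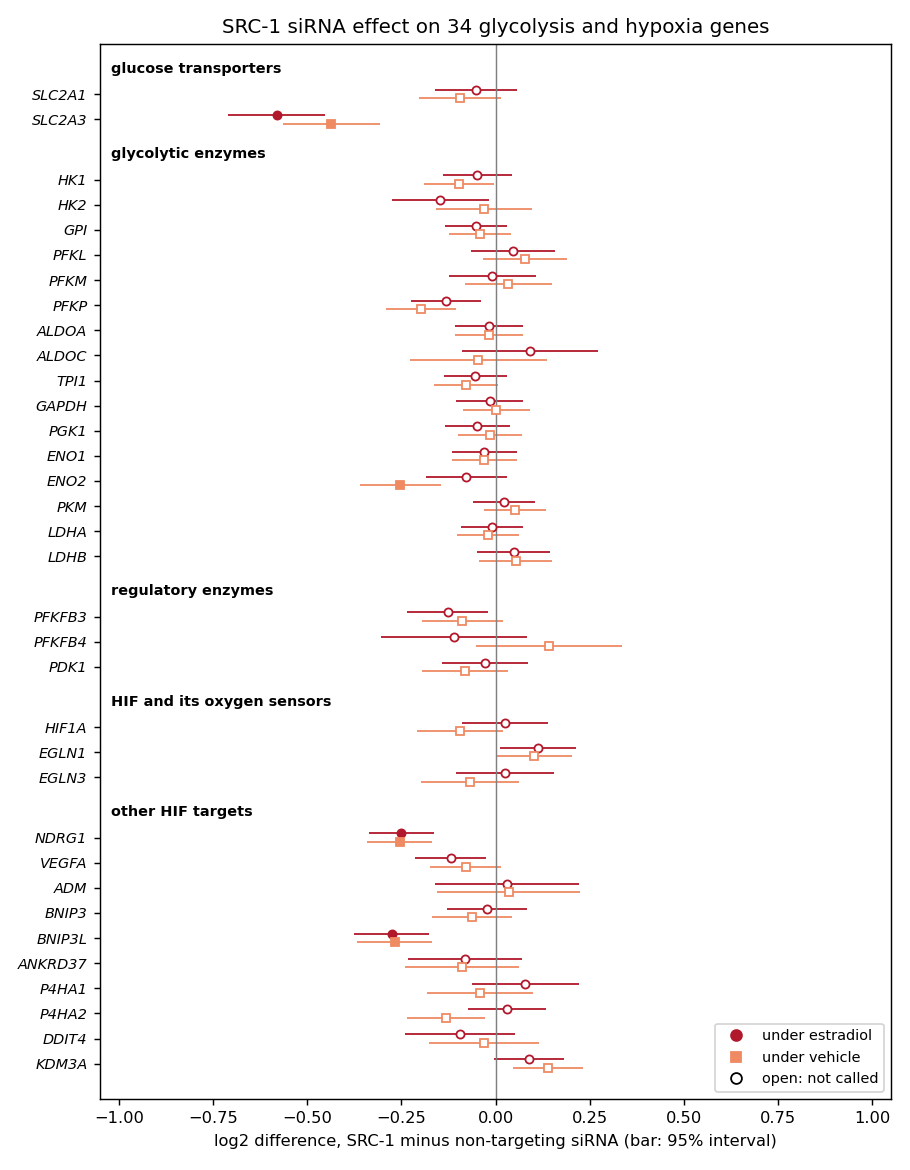
SRC-1 siRNA minus non-targeting siRNA (log2) for the 34 measured members, by role. Circles are cells under estradiol, squares cells under vehicle, bars 95% intervals of the limma model, and filled symbols called differences. SLC2A3, NDRG1 and BNIP3L lie to the left under both treatments, and no filled symbol lies to the right.

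The third comparison asked whether the estradiol effect on these genes differed with SRC-1 siRNA. No member was called, and 0% of all probe sets were; at an unadjusted limma p under 0.05, 2 members and 2102 of all 29094 probe sets differed. The 2 were ENO2, at 0.17 log2 (95% interval 0.02 to 0.33, limma adjusted p = 0.655), and P4HA2, at 0.16 (0.01 to 0.31, limma adjusted p = 0.672). For the genes that estradiol changed with either siRNA the difference of the effects was 0.04 (-0.11 to 0.20) for SLC2A1, -0.15 (-0.33 to 0.04) for SLC2A3, 0.05 (-0.08 to 0.18) for HK1, -0.04 (-0.19 to 0.11) for PFKFB3 and -0.04 (-0.17 to 0.09) for VEGFA. The 95% interval lay within 1.25-fold of no difference for 88.2% of the members and 52.8% of all probe sets. These shares depend on precision: the median standard error was 0.0679 log2 for the members and 0.101 for all probe sets. Across the 34 members the effects with the different siRNAs, which share no array, correlated at r = 0.922 (Pearson) and 0.791 (Spearman), a description in which the members that moved weigh most. NCOA1 transcript remained in the SRC-1 siRNA cells, more under estradiol, as given above.

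Other genes of the same pathways were taken from lists chosen by name, with earlier results of these data known. Their counts therefore describe these lists and do not test whether a pathway responds. Of 34 further genes of glucose uptake, glycolysis, pyruvate control and lactate export, estradiol raised 3 and lowered 1 with SRC-1 siRNA, against 4.49% and 2.39% of all probe sets, and raised 1 and lowered 1 with non-targeting siRNA, against 1.85% and 0.873%. PDK4, a kinase that inactivates pyruvate dehydrogenase, had log2 values of 7.43, 7.52 and 7.39 under estradiol and 6.44, 6.40 and 6.44 under vehicle with SRC-1 siRNA, and of 7.07, 7.10 and 6.98 under estradiol and 6.38, 6.42 and 6.49 under vehicle with non-targeting siRNA. All 6 estradiol arrays lay above all vehicle arrays, and those with SRC-1 siRNA above those with non-targeting siRNA. PDK4 was 2.03-fold higher under estradiol with SRC-1 siRNA and 1.54-fold higher with non-targeting siRNA (limma adjusted p = 7.05e-07 and 3.81e-05), and under estradiol it was 1.32-fold higher with SRC-1 siRNA (limma adjusted p = 0.00343). Its mean under vehicle was 6.43 log2 with either siRNA. The difference between its estradiol effects was not called.

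PDP1, the phosphatase that reactivates pyruvate dehydrogenase, moved opposite to PDK4. Its log2 values were 9.87, 10.03 and 9.98 under estradiol and 10.40, 10.53 and 10.54 under vehicle with SRC-1 siRNA, and 10.10, 10.05 and 9.98 under estradiol and 10.40, 10.45 and 10.49 under vehicle with non-targeting siRNA. It was 1.45-fold lower under estradiol with SRC-1 siRNA and 1.32-fold lower with non-targeting siRNA (limma adjusted p = 0.000237 and 0.00248), and with the control mean as a covariate it stood at -0.34 and -0.31 log2 and was no longer called (limma adjusted p = 0.394 and 0.0907). PFKFB2, a relative of PFKFB3, was called higher under estradiol with SRC-1 siRNA at 0.29 ± 0.07 log2 (limma adjusted p = 0.04), a call kept in 3 of 12 fits with 1 array left out. ADPGK, an ADP-dependent glucokinase, was called there at 0.15 ± 0.04 (limma adjusted p = 0.0421), a call kept in 0 of 12. SRC-1 siRNA lowered ADPGK by 1.14-fold under estradiol and 1.25-fold under vehicle, and raised the glucose transporter gene SLC2A12 by 1.31-fold and 1.28-fold (limma adjusted p = 0.0354, 0.00219, 0.0104 and 0.0196). Leaving out 1 array at a time, these 4 calls held in 3, 12, 11 and 7 of 12 fits.

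Of 19 further regulators of HIF, estradiol lowered 2 with SRC-1 siRNA and 1 with non-targeting siRNA, against 2.39% and 0.873% of all probe sets. It raised 0 with either, against 4.49% and 1.85%. At an unadjusted limma p under 0.05, 1 was higher and 4 lower with SRC-1 siRNA, and 0 higher and 1 lower with non-targeting siRNA. Of all 29094 probe sets 6740 and 3863 differed in either direction. CITED2, which competes with HIF-1α for the coactivator p300, had log2 values of 10.43, 10.31 and 10.26 under estradiol and 11.12, 11.05 and 11.06 under vehicle with SRC-1 siRNA, and of 10.09, 10.12 and 10.16 under estradiol and 10.85, 10.76 and 10.76 under vehicle with non-targeting siRNA. All estradiol arrays lay below all vehicle arrays. CITED2 was 1.68-fold lower under estradiol with SRC-1 siRNA and 1.59-fold lower with non-targeting siRNA (limma adjusted p = 8.67e-06 and 2.59e-05). EPAS1, which encodes HIF-2α, was called lower with SRC-1 siRNA at -0.21 ± 0.05 log2 (limma adjusted p = 0.0296), a call kept in 8 of 12 fits with 1 array left out.

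Of 36 further HIF target genes, estradiol raised 6 and lowered 5 with SRC-1 siRNA, against 4.49% and 2.39% of all probe sets, and raised 7 and lowered 3 with non-targeting siRNA, against 1.85% and 0.873%. ZNF395, a transcription factor gene, rose 2.46-fold with SRC-1 siRNA and 2.41-fold with non-targeting siRNA, CA12, a membrane carbonic anhydrase, 3.04-fold and 2.53-fold, LOX, the lysyl oxidase that crosslinks collagen, 1.73-fold and 2.28-fold, and HMOX1, a heme oxygenase, 2.09-fold and 1.81-fold (limma adjusted p at most 2.26e-06). For each of these 4 the estradiol arrays lay above the vehicle arrays. The median of this list was -0.01 log2 with SRC-1 siRNA and -0.02 with non-targeting siRNA.

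SRC-1 siRNA lowered 4 of those 36 HIF targets and raised 1 under either treatment, against 1.07% and 0.732% of all probe sets under estradiol and 0.945% and 0.265% under vehicle. GBE1, the glycogen branching enzyme, had log2 values of 8.70, 8.72 and 8.68 with SRC-1 siRNA and 9.22, 9.06 and 9.15 with non-targeting siRNA under estradiol, and of 8.63, 8.32 and 8.58 with SRC-1 siRNA and 9.24, 9.12 and 9.12 with non-targeting siRNA under vehicle. All SRC-1 siRNA arrays lay below the others. GBE1 was 1.36-fold lower under estradiol and 1.57-fold lower under vehicle (limma adjusted p = 0.0148 and 0.00187), PLOD2, a collagen lysyl hydroxylase, 1.29-fold and 1.27-fold lower (limma adjusted p = 0.00383 and 0.0056), and HMOX1 1.36-fold lower under vehicle (limma adjusted p = 0.00161). LOX was 1.39-fold higher with SRC-1 siRNA under vehicle (limma adjusted p = 0.000732). The call of GBE1 under estradiol held in 8 of 12 fits with 1 array left out.

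**Figure D5:**
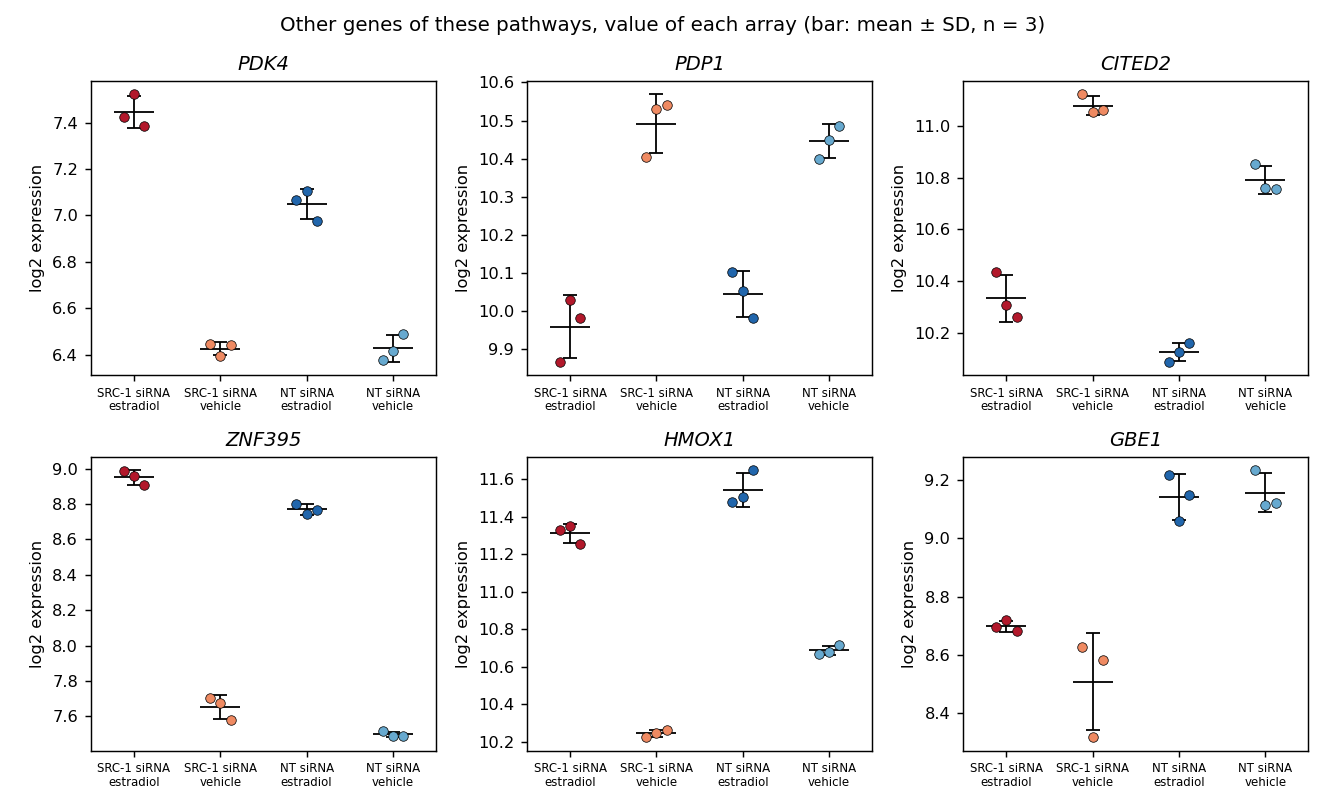
Log2 expression of PDK4, PDP1, CITED2, ZNF395, HMOX1 and GBE1 on each of the 12 arrays. Columns are the 4 groups, points are arrays, horizontal marks are means and bars are SD (n = 3). The axes do not start at 0. PDK4, ZNF395 and HMOX1 sit higher and PDP1 and CITED2 lower under estradiol than under vehicle with the same siRNA, and GBE1 sits lower with SRC-1 siRNA than with non-targeting siRNA.

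The lists for the pathways on either side of glycolysis are short, and their counts are only described. Of 20 genes of the pyruvate dehydrogenase complex and citric acid cycle, 1 was called higher under estradiol with SRC-1 siRNA and 0 lower. Over all probe sets 4.49% and 2.39% were. The gene was MPC1, a subunit of the mitochondrial pyruvate carrier, at 0.21 ± 0.05 log2 (limma adjusted p = 0.0263). This call was kept in 9 of 12 fits with 1 array left out. With non-targeting siRNA none was called, against 1.85% higher and 0.873% lower of all probe sets. There 1 was lower at an unadjusted limma p under 0.05, beside 3863 of the 29094 probe sets in either direction. With SRC-1 siRNA under estradiol 1 of the 20 was called higher, again MPC1, and 0 lower, against 0.732% and 1.07% of all probe sets. Its difference was 0.24 ± 0.05 (limma adjusted p = 0.0389), a call lost without any 1 of the 12 arrays. Under vehicle 0 of the 20 were called, against 0.265% higher and 0.945% lower of all. With the control mean as a covariate both of these MPC1 calls were lost. The estradiol effect with SRC-1 siRNA stood at 0.27 log2 and the SRC-1 siRNA effect under estradiol at 0.26 (limma adjusted p = 0.504 and 0.186). At an unadjusted limma p under 0.05, 4 of the 20 were higher and 2 lower with SRC-1 siRNA under estradiol. Under vehicle 0 were higher and 2 lower. Of the 29094 probe sets 4589 differed in either direction under estradiol and 3691 under vehicle. In the averaged SRC-1 siRNA effect 2 of the 20 were called higher and 0 lower, against 2.05% and 3.05% of all probe sets. MPC1 stood there at 0.17 ± 0.03 log2 (SE; limma adjusted p = 0.0178), a call kept in 12 of 12 fits with 1 array left out and with the control mean as a covariate (0.18, limma adjusted p = 0.0418). SDHD, a membrane anchor of succinate dehydrogenase, stood at 0.12 ± 0.03 (limma adjusted p = 0.0384), a call kept in 1 of 12. At an unadjusted limma p under 0.05, 4 were higher and 5 lower in that averaged effect, beside 5420 of the 29094 probe sets in either direction. None of the 6 measured genes of the pentose phosphate pathway was called in any of the 7 contrasts. In each contrast at most 6.11% of all probe sets were called in 1 direction. At an unadjusted limma p under 0.05, 0 of the 6 differed with estradiol and 1 was lower with SRC-1 siRNA under each treatment. So few genes cannot show whether that pathway stayed unchanged.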

How the data were processed

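RNA from U2OS-ERα cells was hybridised to 12 Affymetrix Human Gene 1.0 ST arrays, 3 in each of 4 groups. Each deposited value is a log2 expression level of a probe set, which the authors made with the affy package and tested with limma, per the submitters' processing notes; the background correction, normalization and versions are not given in the sources used here. No further normalization was applied. From the 33297 probe sets, 4203 numbered below 7896740, where probe sets with a gene begin, were dropped as presumed array controls, a reading of the numbering that no source states. Gene symbols came from the platform annotation: 19460 of the 29094 tested probe sets carry 1 symbol, 1754 several and 7880 none.

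All 12 arrays entered 1 linear model with a coefficient for each group, fitted in limma 3.58.1 under R 4.3.3 (3.15 prior and 8 residual degrees of freedom), with two-sided tests adjusted over the 29094 probe sets and the thresholds of the series' design text. Precision is limited by the number of arrays: a difference between groups had a median standard error of 0.0711 log2 over all probe sets and of 0.048 over the members. Promoter windows were searched with Python 3.11.15, and the test was run on simulated data with independent noise for each value. That run held no shift common to an array, such as that of the control probe sets, and no replicate structure. The members, the lists and the tests were chosen with earlier results of these data known. The text names NCOA1, ESR1, all members, any marker and, for each other list and contrast, up to 4 called genes with the smallest p. Alternatives were the replicate number as a block, a fit restricted to the arrays compared, a filter, 2 further normalizations, a trended robust variance, the control mean as a covariate, other sets of probe sets, other thresholds and each array left out. Replicate numbers come from the titles. Same-numbered arrays of different groups deviated from their group means together at correlations of -0.0349 to 0.209, and differently numbered ones at -0.264 to 0.115. The labels do not describe the numbers as pairs, so the main model left them out. A fit with them as a block is given below.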

Additional observations from a re-analysis of the deposited data

Results flagged for a closer look

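The probe sets taken as the array's controls, which enter no comparison, gave a signal that moved with the treatment. Their mean deviation was 0.226 log2 higher under estradiol than under vehicle with SRC-1 siRNA and 0.109 higher with non-targeting siRNA, and every estradiol array lay above every vehicle array. What these probe sets measure is not given in the sources used here. Their part in the estradiol effects was examined only through the covariate fit, whose values stand in the next section.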

How the results depend on the processing

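The calls below are counts of members. Every one of the 35 called differences of a member kept its direction under the alternatives run, except ADM. With the control mean as a covariate the called members became 1 for the estradiol effect with SRC-1 siRNA (SLC2A1), 4 with non-targeting siRNA (without SLC2A3 and PFKFB4), 2 for the averaged estradiol effect, and 1 for the SRC-1 siRNA effect under estradiol (SLC2A3). The calls over all probe sets fell alongside, to 106, 366, 212 and 121, against 2001, 793, 2898 and 524 without it. That fit also turned ADM to 0.016 log2 in the averaged estradiol effect, and PFKFB2 to -0.042 with SRC-1 siRNA and -0.038 averaged. A fit of the compared arrays alone left 1 member for the SRC-1 siRNA effect under vehicle and 1 under estradiol, SLC2A3 in both, with fewer residual degrees of freedom. An adjusted p under 0.01 left 2 under vehicle and 6 in the averaged estradiol effect. The averaged SRC-1 siRNA effect called 9 members with the lowest 40% of probe sets left out and 10 with a trended and robust variance, against 5; over all probe sets these fits called 2344 and 2422, against 1483. Leaving out 1 array at a time, the SRC-1 siRNA effect called 2 to 3 members under estradiol and 2 to 5 under vehicle, and 4 to 6 averaged; the estradiol effect called 5 to 7 with SRC-1 siRNA, 6 to 7 with non-targeting siRNA and 9 to 11 averaged. The replicate block gave 6 members for the estradiol effect with either siRNA, 3 for the SRC-1 siRNA effect under either treatment, 10 and 5 for the averaged effects and 0 for their difference; ENO2 under vehicle and the averaged EGLN1 lost their calls in it. Of the 12 arrays 10 correlated best with an array of their own number, a hint from the data and not from the design. The difference of the estradiol effects called 0 members in every fit. Apart from what the construction of a fit shows, the causes were not tested. Signal over background was not measured.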

Other observations

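Further genes of these pathways were called in the averaged effects, which reuse the same arrays. SRC-1 siRNA lowered HKDC1, a hexokinase-like gene, by 1.27-fold, CUL2, the scaffold of the ligase that marks HIF-1α for degradation, by 1.13-fold and ELOC, another subunit of that ligase, by 1.14-fold (limma adjusted p = 0.0121, 0.0164 and 0.0301). HKDC1 lay between 6.42 and 6.74 log2 with SRC-1 siRNA and between 6.83 and 7.03 with non-targeting siRNA under estradiol, and between 6.35 and 6.49 with SRC-1 siRNA and between 6.69 and 6.91 with non-targeting siRNA under vehicle. Its call and that of CUL2 held in 12 of 12 fits with 1 array left out, and that of ELOC in 4 of 12. CITED2 was 1.19-fold higher with SRC-1 siRNA (limma adjusted p = 0.00321), and 1.22-fold higher under vehicle alone (limma adjusted p = 0.0233), a call kept in 7 of 12 such fits. Its lowest values, 10.09 to 10.16 log2, were those of non-targeting cells under estradiol.

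SLC2A4, which encodes the insulin-responsive transporter GLUT4, was called higher under estradiol in the averaged effect at 0.18 ± 0.05 log2 (SE; limma adjusted p = 0.0281), a call kept in 6 of 12 fits with 1 array left out. TMEM45A, listed as a HIF target, was called 1.23-fold higher and VLDLR, a lipoprotein receptor, 1.21-fold lower with SRC-1 siRNA under estradiol (limma adjusted p = 0.0283 and 0.0338), calls kept in 7 and 4 of 12 such fits. Of the 9 measured bone and mesenchymal markers, SRC-1 siRNA lowered 1 and raised 0 under each treatment. Over all probe sets 1.07% and 0.732% were called under estradiol, and 0.945% and 0.265% under vehicle. The marker was ALPL, the alkaline phosphatase, 1.35-fold lower under estradiol and 1.18-fold lower under vehicle (limma adjusted p = 0.00089 and 0.031). Its call under vehicle held in 5 of 12 such fits. The median of the 9 lay the other way, at 0.03 log2 under estradiol and 0.04 under vehicle.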
